A study of Homo sapiens with 12 samples.

Results

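Whole-cell RNA of the ΔRS-res and WT-res lines was compared gene by gene. Both lines derive from Flp-In T-REx 293 cells, a human embryonic kidney line with a single FRT site for integration and a doxycycline-controlled promoter. In each line 1 µg/ml doxycycline, given for 6 days, switched on miRNAs that target the cells' own PPARGC1A mRNA, and with them an RNAi-resistant, FLAG-tagged PGC-1α, full length in WT-res or, in ΔRS-res, without the RS domain, a deletion that the description of the series gives as residues 595 to 633. The groups therefore share the depletion of endogenous PGC-1α and the induction, and differ in the form of PGC-1α and in the colony from which each line was grown, 2 differences that cannot be told apart. Replicates came from consecutive passages, with a single well per whole-cell library, so p-values measure the spread between passages of a line and not between independent clones.

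The members were 5 of the 12 libraries of the series, ΔRS-res replicates 1 to 3 and WT-res replicates 1 and 2, with transcript counts summed per gene. They were chosen by measured levels: the third library labelled WT-res whole-cell had ΔRS-res levels of DDX19B and SDHA and was left out, and its values are given beside the others. In bulk RNA, fewer cells that express a gene and less of its RNA per cell cannot be told apart. The remaining 6 libraries hold cytoplasmic RNA of the same lines and passages, and took no part in that choice. The whole-cell libraries held totals of 90.3 to 122.0 (in units of 1000000 expected counts). Levels below are counts per 1000000 (CPM) scaled to effective library sizes, fold changes are ΔRS-res over WT-res on the log2 scale, and a gene is called when edgeR's quasi-likelihood test gives it a Benjamini-Hochberg adjusted p under 0.05 among all genes tested. Of 20 genes characteristic of HEK293 cells, 15 were at or above 1 CPM in all 6 whole-cell libraries, with a summed level between 1890 and 1920 CPM in WT-res replicates 1 and 2, 1890 CPM in the left-out library and between 2040 and 2110 CPM in ΔRS-res. Of 27 markers of other cell types, 22 stayed below 1 CPM in all 6, with CD3E, INS and UMOD at 0, and the list summed to between 25.4 and 26.1 CPM, 33.1 CPM and between 31.0 and 38.6 CPM respectively.

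PGC-1α, the product of PPARGC1A, is a transcriptional coactivator without a DNA-binding domain of its own. It is recruited by nuclear receptors and by factors such as ERRα and NRF1 to genes of mitochondrial biogenesis, oxidative phosphorylation and fatty acid oxidation, and it is best known from brown fat, muscle and liver. Its carboxyl-terminal part carries a stretch rich in serine and arginine, the RS domain, next to an RNA recognition motif. RS domains are disordered regions found in splicing and mRNA export factors. Residues 595 to 633 are shown by their reference codons, because their removal is part of the engineered difference between the lines. The study's own account starts the RS domain at an earlier residue, so the deletion may extend upstream of the codons printed here. In transcript ENST00000264867 of PPARGC1A (GENCODE 44, GRCh38, minus strand) they span the end of exon 8 (chr4:23813690-23813700), exon 9 (chr4:23813021-23813125) and the first base of exon 10 (chr4:23812867-23812867). Capitals mark the 11 serine and 10 arginine codons, and the sequence is that of the reference genome, not of the RNAi-resistant construct.
PPARGC1A codons 595 to 633: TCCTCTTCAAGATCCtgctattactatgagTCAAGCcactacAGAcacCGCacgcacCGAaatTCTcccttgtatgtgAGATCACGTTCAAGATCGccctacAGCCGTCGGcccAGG
Serine and arginine make up 53.8% of these 39 codons and 21.9% of the 798 codons of the whole reading frame.

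PPARGC1A reads come from the endogenous and the introduced copies together, so the level measures neither alone. The gene stood at 671 and 689 CPM in WT-res replicates 1 and 2, and at 352, 364 and 498 CPM in ΔRS-res replicates 1 to 3. The groups did not overlap, ΔRS-res replicate 3 was the nearest to WT-res, and the left-out library was also at 498 CPM. The fitted change was -0.75 (standard error 0.146, adjusted p = 0.0554), short of the threshold. With a block for the replicate number it was -0.93 (adjusted p = 0.000408). In that fit ΔRS-res replicate 3 has no WT-res partner, so the estimate rests on replicates 1 and 2 and leaves its 498 CPM out. In the cytoplasmic libraries the change was -0.92 (adjusted p = 0.016).

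DDX19B and SDHA decided which library was left out, so their values are a description without a test. DDX19B, a DEAD-box helicase that acts at the cytoplasmic face of the nuclear pore in mRNA export, stood at 12.6 and 13.2 CPM in WT-res, at 0.199 CPM in the left-out library and at 0.263, 0.257 and 0.229 CPM in ΔRS-res. SDHA, the flavoprotein subunit of succinate dehydrogenase (complex II), stood at 72.7 and 70.9 CPM in WT-res, at 335 CPM in the left-out library and at 343, 338 and 392 CPM in ΔRS-res. At both genes the left-out library lay with ΔRS-res and far from the other WT-res libraries. The same separation held in the cytoplasm, where all 3 libraries labelled WT-res kept 13.6 to 14.8 CPM of DDX19B and those labelled ΔRS-res 0.28 to 0.345 CPM.

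In total 552 of 26762 genes were called (2.06%), DDX19B and SDHA included, 315 of them lower in ΔRS-res (1.18%) and 237 higher (0.886%). Most were protein-coding, 260 lower and 201 higher, and 61 were lncRNAs. The median size of the change was 0.79 on the log2 scale, 208 genes changed by more than 1 and 40 by more than 3. For 42.5% of all genes tested, called or not, the 2 groups of libraries did not overlap. These counts belong to the choice of libraries. With all 6 whole-cell libraries under their labels edgeR called 0 genes, although 3360 had an unadjusted p under 0.05, of which those lower in ΔRS-res made up 8.54% of all genes tested, and DESeq2 called 1064. On the 5 libraries DESeq2 called 9.1% of genes, 4.65% lower and 4.45% higher. By the study's threshold, an unadjusted p under 0.05 with a log2 change beyond 0.5, 5.96% of genes were lower and 4.41% higher. In a block for the replicate number ΔRS-res replicate 3 has no partner among the 5 libraries, so the line effect rests on replicates 1 and 2. With that block the count rose to 4444 (16.6%), 2461 lower (9.2%) and 1983 higher (7.41%), on 1 residual degree of freedom. Without WT-res replicate 2 it fell to 64, and without ΔRS-res replicate 3 it rose to 1743. All 552 kept their direction whichever library of the 5 was removed, which calling them in these same libraries largely fixes in advance. Of the 552, 214 were still called without ΔRS-res replicate 1, 307 without ΔRS-res replicate 2 and 548 without ΔRS-res replicate 3.

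**Figure D1:**
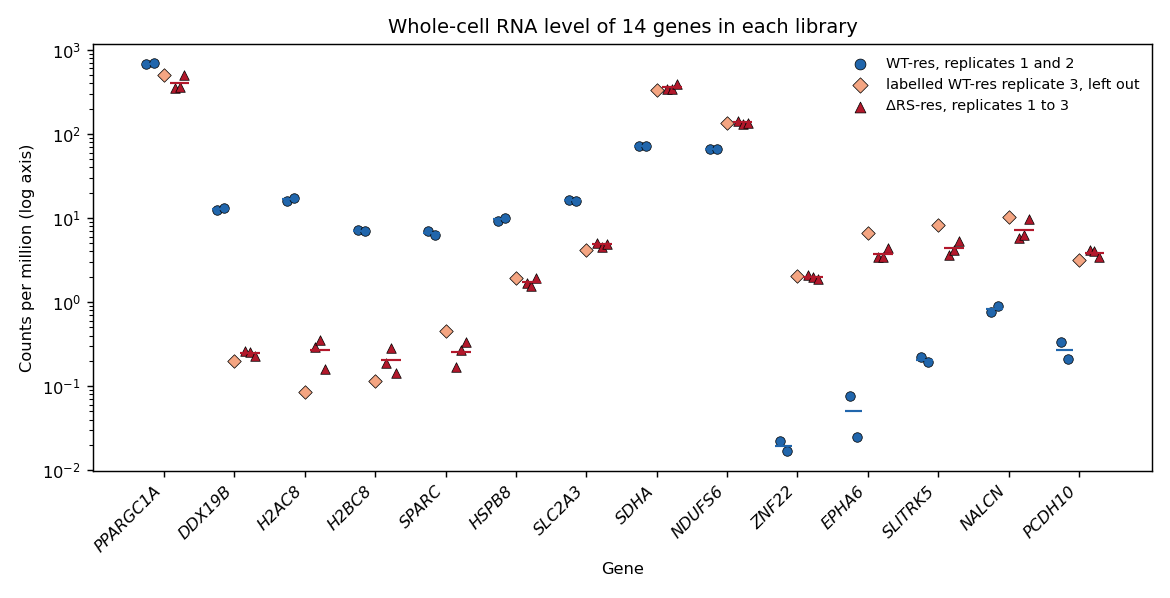
Whole-cell level of 14 genes in each of the 6 libraries, in CPM on a log axis. Circles are WT-res replicates 1 and 2, the diamond is the library labelled WT-res replicate 3 that was left out, triangles are ΔRS-res replicates 1 to 3, and short lines are group means. The diamond lies among or near the triangles at DDX19B and SDHA, at 498 CPM between the groups' means for PPARGC1A, and above all triangles at EPHA6 and SLITRK5.

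The left-out library also lay near ΔRS-res at the genes that played no part in its removal. On a log2 scale on which the WT-res mean is 0 and the ΔRS-res mean is 1, its median position over the other 550 called genes was 0.93 (quartiles 0.67 and 1.14). It was nearer to ΔRS-res at 460 of them (83.6%) and nearer to WT-res at 90. The 550 genes were called with this library removed, so they are not independent of its removal.

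**Figure D2:**
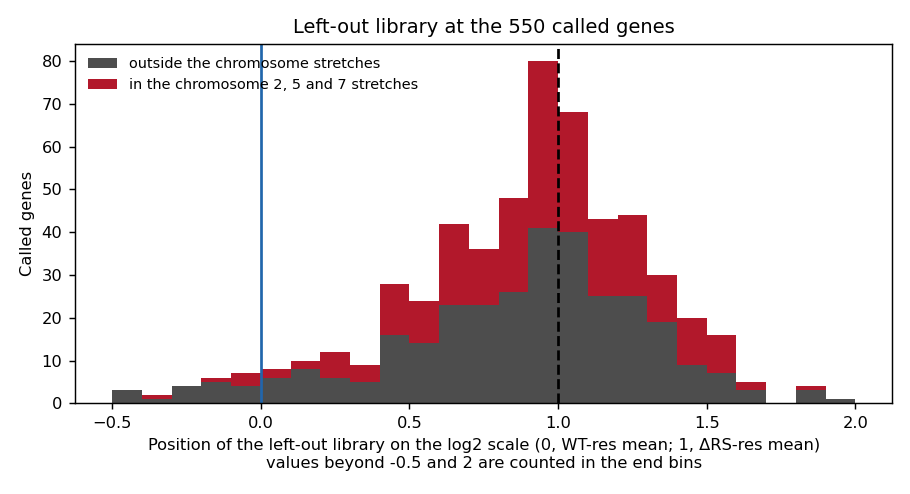
Number of called genes (vertical axis) by the position of the left-out library between the WT-res mean (0, blue line) and the ΔRS-res mean (1, dashed line) on the log2 scale. The 550 genes pile up around a median of 0.93, and the bars inside and outside the chromosome stretches have the same peak.

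The cytoplasmic libraries give a reading of the same lines in samples that the choice did not use. Of the 550 genes 549 were tested there, 546 changed in the same direction, 303 of these were called and 0 were called in the opposite direction, against a background of 1.53% called in the cytoplasm (396 of 25949), 0.948% lower and 0.578% higher. The difference between the 2 fractions' changes was called for 0 of the 550 genes by edgeR's test of the interaction, with 49 at an unadjusted p under 0.05. Over all genes tested for it 0.00375% were called, a single gene with the lower value, and 4.72% had an unadjusted p under 0.05 (1.49% lower and 3.23% higher). The passages are shared between the 2 kinds of library, so this repeats the lines rather than the clones.

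**Figure D3:**
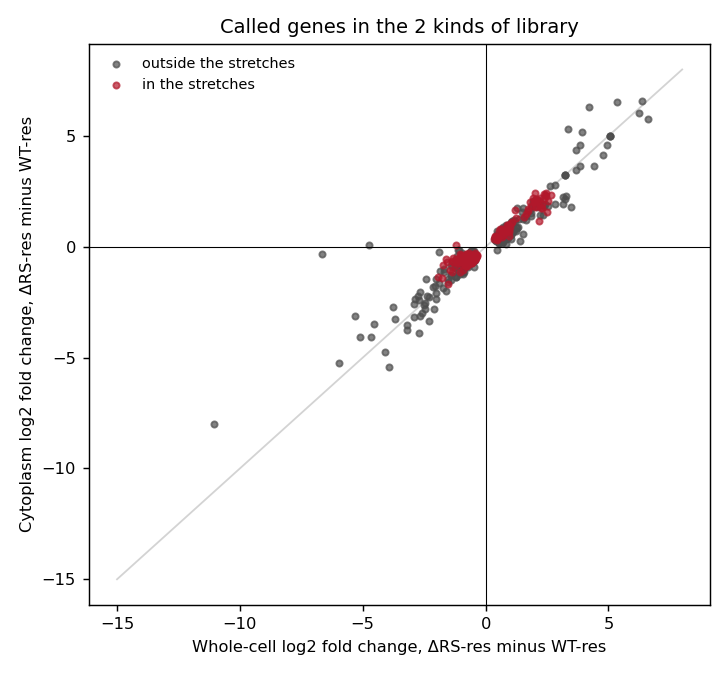
Log2 fold change of ΔRS-res over WT-res for each called gene in whole-cell RNA (horizontal) and in cytoplasmic RNA (vertical), with a grey line where the 2 are equal. Of 549 genes 546 lie on the same side of 0 in both kinds of RNA, and the point at -4.76 in whole-cell RNA and 0.10 in the cytoplasm is SULT1A4.

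Many of the called genes were neighbours. Genes with a mean count of at least 100 were placed in windows of 25 along the chromosomes, and windows whose median in the cytoplasmic libraries lay more than 0.3 from the rest were taken as shifted. They formed 3 stretches, on 2q, 7q and the part of chromosome 5 from the end of its short arm to just past the centromere, which held 233 of the 550 called genes. In whole-cell RNA the called genes of the 2q and 7q stretches were lower in ΔRS-res, with 1 exception, and those of the chromosome 5 stretch were higher. The left-out library had the same 3 shifts, with medians of -0.44, 0.69 and -0.47 against the other WT-res libraries on 2q, chromosome 5 and 7q. SDHA, which helped decide its removal, lies in the chromosome 5 stretch, so that shift is not separate from the choice.

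**Figure D4:**
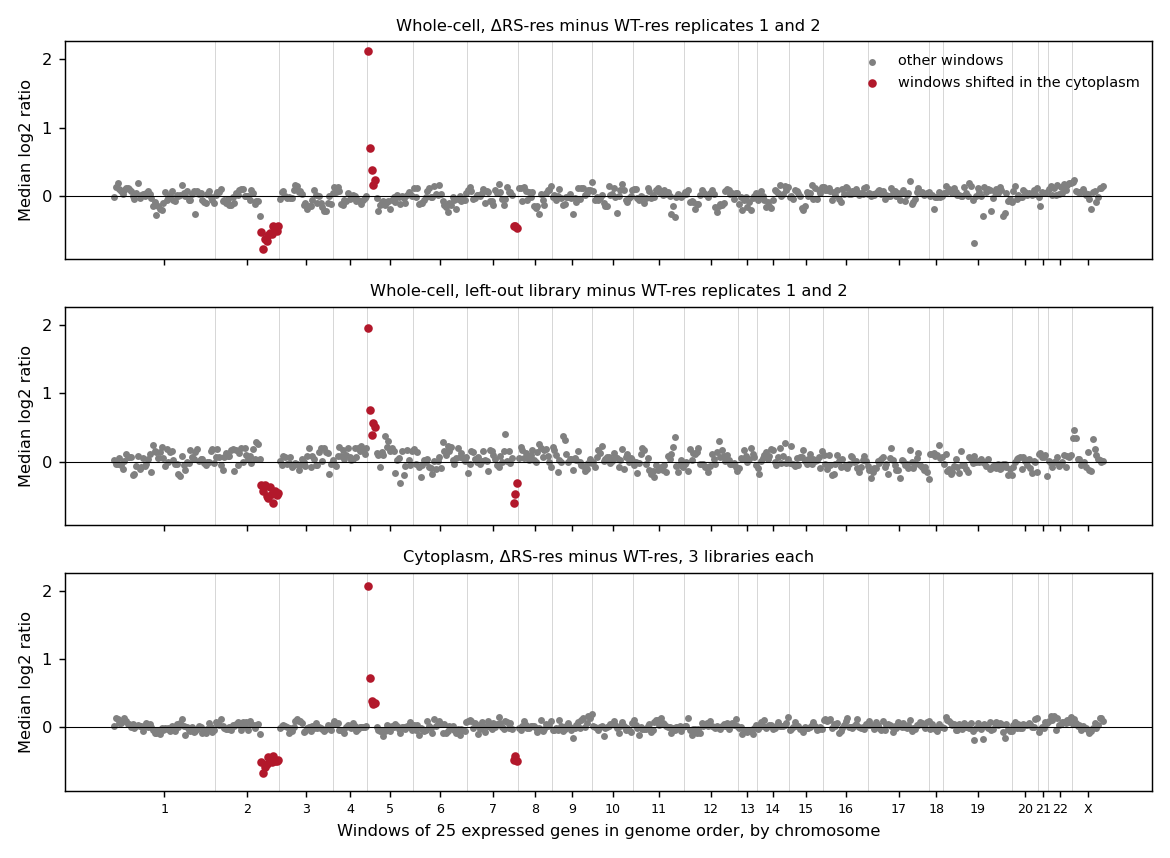
Median log2 ratio (vertical axis) of each window of 25 expressed genes in genome order (horizontal axis, by chromosome) for ΔRS-res over WT-res in whole-cell RNA, for the left-out library over the other WT-res libraries, and for ΔRS-res over WT-res in the cytoplasm. Red windows are those shifted in the cytoplasm, on chromosomes 2, 5 and 7. In whole-cell RNA the first chromosome 5 window reaches 2.12 and the last ones overlap the range of the grey windows, of which 1 on chromosome 19 lies at -0.68.

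The stretch on chromosome 5 ran from PLEKHG4B to ITGA1 (0.1 to 53.0 Mb). Of its 249 genes tested, 63 were called, SDHA included, all higher in ΔRS-res (25.3%). A higher estimate was found for 108 of its 125 expressed genes. The change was largest near the end of the chromosome arm, with window medians of 2.12, 0.70, 0.38, 0.16 and 0.23 in order. Over the 19 expressed protein-coding genes from PLEKHG4B to LPCAT1 the estimates ran from 1.00 to 2.46. The lowest was TERT, the catalytic subunit of telomerase (adjusted p = 0.16), and the highest ZDHHC11B, a palmitoyltransferase gene (adjusted p = 0.000616). TRIP13, an ATPase of the spindle checkpoint that like TERT was chosen after its values were seen, went from 40.1 and 41.7 CPM in WT-res to 165, 165 and 158 CPM in ΔRS-res, a change of 1.99 (standard error 0.0691, adjusted p = 8.01e-05), with 148 CPM in the left-out library. SLC12A7, a potassium-chloride cotransporter, rose by 2.12 (adjusted p = 0.000447) and SLC9A3, a sodium-proton exchanger, by 2.41 (adjusted p = 0.000395). PP7080, a lncRNA beside SLC9A3, rose by 2.22 (adjusted p = 0.000108). AHRR, the repressor of the aryl hydrocarbon receptor, rose by 2.37 (adjusted p = 0.00462).

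Among expressed protein-coding genes the estimates were lower beyond LPCAT1, the next ones being MRPL36 and NDUFS6. SDHAP3, a transcribed pseudogene between LPCAT1 and MRPL36, still rose by 1.82 (adjusted p = 0.0003). NDUFS6, a subunit of complex I, stood at 66.6 and 65.6 CPM in WT-res and at 143, 132 and 135 CPM in ΔRS-res, with 136 CPM in the left-out library, and rose by 1.05 (standard error 0.07, adjusted p = 0.000852). MRPL36, of the mitochondrial ribosome's large subunit, rose by 1.06 (adjusted p = 0.000715). Further along, NSUN2, an RNA cytosine methyltransferase, rose by 0.65 (adjusted p = 0.0216), MARCHF6, a ubiquitin ligase of the endoplasmic reticulum, by 0.47 (adjusted p = 0.0294) and NUP155, a scaffold nucleoporin, by 0.36 (adjusted p = 0.0315). OXCT1, the mitochondrial enzyme of ketone body use, was chosen after its values were seen and rose by 0.93 (adjusted p = 0.000852). HMGCS1, which makes HMG-CoA for sterol synthesis, went from 112 and 114 CPM to 205, 205 and 269 CPM, a rise of 1.00 (adjusted p = 0.0115). The levels of SDHA, ZDHHC11B and SDHAP3 are uncertain to the extent that reads could be divided with near-identical copies, SDHA with SDHAP3 and ZDHHC11B with ZDHHC11.

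The stretch on 2q ran from ATF2 to COPS9 (175.1 to 240.1 Mb of chromosome 2) and held 145 of the 315 genes called lower. Of its 498 genes tested, 29.3% were called, and 266 of its 275 expressed genes had a lower estimate, with a median of -0.57. The changes were moderate and included some of the most abundant mRNAs of the cells. HSPD1, the mitochondrial chaperonin Hsp60, stood at 1746 and 1896 CPM in WT-res and at 1157, 1167 and 1044 CPM in ΔRS-res, a change of -0.70 (standard error 0.0773, adjusted p = 0.00824), with 1126 CPM in the left-out library. Its divergent neighbour HSPE1, the co-chaperonin Hsp10, also chosen after its values were seen, fell by 0.99 (adjusted p = 0.0132). PTMA, the gene of prothymosin alpha, fell by 0.51 (adjusted p = 0.0194), RPL37A, of the large ribosomal subunit, by 0.59 (adjusted p = 0.0186) and HNRNPA3, an RNA-binding protein of the hnRNP A group, by 0.60 (adjusted p = 0.0196).

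Several regulators in this stretch moved with it. BMPR2, the type II receptor for bone morphogenetic proteins, fell by 0.86 (adjusted p = 0.00795) and FZD5, a WNT receptor, by 0.51 (adjusted p = 0.0154). The α-integrin genes ITGA4 and ITGAV fell by 0.95 (adjusted p = 0.00923) and 0.74 (adjusted p = 0.0173). CLK1, a kinase that phosphorylates SR proteins, stood at 39.9 and 48.8 CPM in WT-res and at 20.2, 22.4 and 17.1 CPM in ΔRS-res, a change of -1.15 (standard error 0.134, adjusted p = 0.00923), with 26.4 CPM in the left-out library. NFE2L2 and CREB1, chosen after their values were seen, encode the antioxidant regulator NRF2 and a cAMP-responsive factor, and fell by 0.75 (adjusted p = 0.0144) and 0.86 (adjusted p = 0.0177). The exception was UNC80, named because it was the exception, which rose by 2.19 from 0.176 CPM in each WT-res library (adjusted p = 0.00923). UNC80 is a subunit of the sodium leak channel NALCN, described below. A further 18 genes were called lower, and 1 higher (DLX1), among the 97 tested within 5 Mb of the ends of this stretch. HDLBP, an RNA-binding protein with many KH domains, was the most abundant of them and fell by 0.50 (adjusted p = 0.00969).

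The stretch on 7q ran from OR2A1-AS1 to ESYT2 (144.3 to 158.8 Mb of chromosome 7), with 25 of 119 genes called, all lower (21.0%), and a median of -0.44 over its 75 expressed genes. CNTNAP2, a neurexin-like adhesion protein, stood at 44 and 45.7 CPM in WT-res and at 25.6, 26.3 and 24.6 CPM in ΔRS-res, a change of -0.82 (standard error 0.0721, adjusted p = 0.00315), with 22.1 CPM in the left-out library. EZH2, the histone methyltransferase of Polycomb repressive complex 2, was chosen after its values were seen and fell by 0.72 (adjusted p = 0.00324). ZNF783 fell by 1.52 (adjusted p = 0.00153), the largest decrease among the named genes of this stretch. With a block for the replicate number 268 genes of the 2q stretch, 58 of the 7q stretch and 3 of the chromosome 5 stretch were called lower, and 98 of the chromosome 5 stretch higher. Over all genes tested that fit called 9.2% lower and 7.41% higher.

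Outside the 3 stretches 318 of 25896 genes were called (1.23%), 145 lower and 173 higher, around a median of 0.01. The largest changes lay here, where single genes were near or at 0 in a line. HACD4, an enzyme of very-long-chain fatty acid elongation (ENSG00000188921, chromosome 9, 20999509 to 21031640), had 197 and 332 counts in the WT-res libraries and 0 in each ΔRS-res library, so that it was at least 76-fold lower against a floor of 3 counts per library, a limit that covers counting error only. The left-out library held 1 count of HACD4. In the cytoplasm it had between 227 and 355 counts in the WT-res libraries and 0, 3 and 0 in ΔRS-res.

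The histone genes H2AC8 and H2BC8 (chromosome 6) fell together. H2AC8 went from 16.0 and 17.4 CPM in WT-res to 0.291, 0.352 and 0.161 CPM in ΔRS-res, a change of -5.97 (standard error 0.246, adjusted p = 0.000106). H2BC8 went from 7.2 and 6.92 CPM to 0.188, 0.285 and 0.144 CPM, a change of -5.10 (standard error 0.241, adjusted p = 0.000176). In the left-out library they stood at 0.0852 and 0.114 CPM, with ΔRS-res. These genes are transcribed away from each other, and the 232 bases between their RefSeq starts (GRCh38.p14, chr6:26216689-26216920, plus strand) are shown because the pair moved together. Capitals mark matches to CCAAT, to the octamer ATTTGCAT and to TATAAA on either strand.
H2BC8 to H2AC8: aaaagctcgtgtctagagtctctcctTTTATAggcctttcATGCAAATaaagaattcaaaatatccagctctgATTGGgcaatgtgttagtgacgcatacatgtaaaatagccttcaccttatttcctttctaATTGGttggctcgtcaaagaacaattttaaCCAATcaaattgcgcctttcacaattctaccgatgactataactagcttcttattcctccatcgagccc
The interval holds 3 CCAAT letters, 1 octamer and 1 TATAAA. Among the 300-base promoter windows of 14347 tested genes, 36.1% held CCAAT, 1.54% the octamer and 7.09% TATAAA. Of 63 replication-dependent histone genes tested these and H2BC10 were called, all lower, and the median of the 63 was -0.10. The deposited counts do not show how reads that fit several histone genes were divided.

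Among the other decreases, SPARC, a collagen-binding matrix protein, went from 7.03 and 6.36 CPM in WT-res to 0.169, 0.266 and 0.339 CPM in ΔRS-res, a change of -4.68 (standard error 0.244, adjusted p = 0.000296), with 0.455 CPM in the left-out library. HSPB8, a small heat shock protein of chaperone-assisted autophagy, went from 9.17 and 10.1 CPM to 1.68, 1.57 and 1.91 CPM, a change of -2.48 (standard error 0.136, adjusted p = 0.000355), with 1.95 CPM in the left-out library. SLC2A3, the glucose transporter GLUT3, went from 16.4 and 15.9 CPM to 5.1, 4.49 and 4.93 CPM, a change of -1.74 (standard error 0.104, adjusted p = 0.00051), with 4.17 CPM in the left-out library. ERVMER34-1, an envelope gene of endogenous retroviral origin, fell by 4.54 (adjusted p = 8.01e-05). ALPL, the tissue-nonspecific alkaline phosphatase, fell by 2.89 (adjusted p = 0.00223) and ATL3, an atlastin that shapes the endoplasmic reticulum, by 2.67 (adjusted p = 0.0011). THNSL2 fell by 3.20 (adjusted p = 0.000306). The estimate for SULT1A4 (-4.76, adjusted p = 0.00972) is uncertain, because WT-res replicates 1 and 2 differed (7.45 and 2.03 CPM), a near-identical copy, SULT1A3, exists, and the cytoplasmic estimate was 0.10.

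The largest increases outside the stretches were of genes close to 0 in WT-res. ZNF22, a zinc finger gene (chromosome 10), stood at 0.022 and 0.0168 CPM in WT-res and at 2.1, 1.96 and 1.87 CPM in ΔRS-res, with 2.05 CPM in the left-out library and an adjusted p of 0.000111. As WT-res had 4 counts in all, the ratio of summed counts was 104 with an exact 95% counting interval from 40.2 to 381. EPHA6, an ephrin receptor, stood at 0.0771 and 0.0251 CPM in WT-res and at 3.42, 3.42 and 4.42 CPM in ΔRS-res, with 6.61 CPM in the left-out library (adjusted p = 0.000472, ratio 79.3, interval 43.0 to 166). BCHE, butyrylcholinesterase, had a ratio of 32 (interval 15.3 to 80.1, adjusted p = 0.00211).

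Among the further increases, SLITRK5, a synaptic adhesion protein, went from 0.22 and 0.193 CPM to 3.63, 4.16 and 5.26 CPM, a change of 4.40 (standard error 0.253, adjusted p = 0.000447), with 8.14 CPM in the left-out library. NALCN, a sodium leak channel that sets neuronal resting excitability, went from 0.76 and 0.889 CPM to 5.83, 6.29 and 9.74 CPM, a change of 3.14 (standard error 0.276, adjusted p = 0.00314), with 10.4 CPM in the left-out library. Its partner UNC80 rose as given above. PCDH10 and PCDH20, non-clustered protocadherins, rose by 3.86 (adjusted p = 0.000676) and 2.41 (adjusted p = 0.00747). KCND2, a voltage-gated potassium channel, had 3 counts in WT-res and 139 in ΔRS-res, a ratio of 29.5 (interval 9.9 to 145, adjusted p = 0.00966). NAV3, a microtubule-binding neuron navigator, rose by 2.54 (adjusted p = 0.00693).

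Among other increases, SLC38A5, a glutamine transporter, rose by 3.66 (adjusted p = 0.00132), PAPPA, a protease of IGF-binding proteins, by 3.13 (adjusted p = 0.0177) and TSHZ2, a zinc finger homeobox gene, by 2.33 (adjusted p = 0.018). At PAPPA and TSHZ2 ΔRS-res replicate 3 stood above replicates 1 and 2, at 1.59 against 0.827 and 0.809 CPM and at 7.93 against 3.93 and 4.35 CPM. The left-out library lay with replicate 3 there, at 1.56 and 7.76 CPM. GK, glycerol kinase, and AMOT, a regulator of Hippo signalling, were chosen after their values were seen. GK rose by 1.79 (adjusted p = 0.00132) and AMOT by 1.83 (adjusted p = 0.000108). On the X chromosome, where these and PDHA1 lie, 18 genes were called higher and 5 lower of 844 tested (2.73%).

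Smaller groups of neighbours were noticed after the values were seen. On chromosome 9, 7 expressed genes from ALG2 to TEX10 (99.2 to 100.4 Mb) all had lower estimates with a median of -0.60, and 5 were called, among them SEC61B of the translocon and ERP44 of the secretory pathway. On chromosome 19 the window from ZNF85 to LINC00662 had a whole-cell median of -0.68, against -0.18 in the cytoplasm and 0.09 for the left-out library over the other WT-res libraries. That median was the largest whole-cell shift of a window outside the 3 stretches, and the median of the left-out library did not share it. Single genes of the interval differed from the median. ZNF730 stood at 0.793 and 1.44 CPM in WT-res, at 0.426 CPM in the left-out library and at 0.15, 0.238 and 0.212 CPM in ΔRS-res.

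Genes that PGC-1α is known to serve were read from lists, and 2.06% called is the background for each in the main test. For counts with the replicate block the background is 9.2% lower and 7.41% higher over all genes tested. For DESeq2 it is 4.65% lower and 4.45% higher, and for the cytoplasm 0.948% lower and 0.578% higher. The lists count members called in the 5 libraries. Of 27 genes of the PGC-1 family and its partner factors 1 was called, RXRA, the retinoid X receptor that pairs with many nuclear receptors. RXRA stood at 22.5 and 21.3 CPM in WT-res and at 29.7, 28.1 and 30.2 CPM in ΔRS-res, a rise of 0.42 (standard error 0.0792, adjusted p = 0.0489), with 23 CPM, near WT-res, in the left-out library. With the replicate block 3 members were lower and 4 higher. Estimates for other partners were 0.43 for ESRRA, the gene of ERRα (adjusted p = 0.14), 0.02 for NRF1 (adjusted p = 0.899), -0.62 for GABPA (adjusted p = 0.0973) and -0.30 for TFAM, the factor that packages and transcribes mitochondrial DNA (adjusted p = 0.198). PPARGC1B, the nearest relative of PPARGC1A, had an estimate of -0.02 (adjusted p = 0.885).

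Letters of the ERR response element TNAAGGTCA, on either strand, were found in 0.606% of the 300-base promoters of all tested genes, in 0 of 245 promoters of genes called lower and in 1 of 171 of genes called higher. The palindrome of 10 letters known for NRF1 was in 2.02% of all, in 4 promoters of genes called lower and in 4 of genes called higher. These counts describe letters in the RefSeq windows only.

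Oxidative phosphorylation was covered by 4 lists. Of 37 nuclear genes of complex I, NDUFS6 was called higher and NDUFB3 and NDUFS1 lower, each of them within a stretch. NDUFB3 fell by 0.78 (adjusted p = 0.0162) and NDUFS1, the largest subunit, by 0.37 (adjusted p = 0.0314). In complex II, where SDHA carries no test, SDHB, SDHC and SDHD had estimates of 0.13, 0.10 and 0.14. Of 41 nuclear genes of complexes III, IV and V edgeR called 0, with 20 at an unadjusted p under 0.05 and a median of 0.15. Over all genes tested in the 5 libraries 20.1% had an unadjusted p under 0.05, 10.6% lower and 9.42% higher, which is the background for this and the other unadjusted counts of list members. With the replicate block 3 of these were lower and 10 higher, and with DESeq2 2 were lower and 3 higher. The 13 mRNAs of the mitochondrial genome had 0 called by edgeR, 6 at an unadjusted p under 0.05 and a median of -0.24, against -0.01 over all genes tested and -0.03 in the cytoplasm. With the block 4 were lower, and with DESeq2 3 were lower. MT-ND2 stood at 1018 and 1216 CPM in WT-res and at 910, 886 and 786 CPM in ΔRS-res, an estimate of -0.38 (adjusted p = 0.112), with 1150 CPM in the left-out library. The mitochondrial share of counts was 1.92% and 2.28% in WT-res, 2.65% in the left-out library and 1.96% to 2.04% in ΔRS-res.

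The TCA cycle and fatty acid oxidation list had 5 of 36 members called (13.9%), all higher, and a median of 0.26. With the replicate block 18 were higher and 2 lower, and in the cytoplasm 1 was called higher with a median of 0.20. PDHA1, of the pyruvate dehydrogenase complex, stood at 193 and 191 CPM in WT-res and at 263, 261 and 308 CPM in ΔRS-res, a rise of 0.53 (standard error 0.0892, adjusted p = 0.0333). PDK3, a kinase that inhibits that complex, rose by 0.46 (adjusted p = 0.0151). CPT1A, which starts the import of long-chain fatty acids into mitochondria, rose by 0.68 (adjusted p = 0.0153) and OGDH, of the 2-oxoglutarate dehydrogenase complex, by 0.54 (adjusted p = 0.0409). The left-out library was near ΔRS-res at each, with 285 CPM of PDHA1, 222 CPM of PDK3, 18.2 CPM of CPT1A and 146 CPM of OGDH. PDK2, another inhibitory kinase of the same complex, rose by 0.45 (adjusted p = 0.0474). The called members thus include PDHA1, OGDH and CPT1A, which take part in oxidation, and PDK2 and PDK3, which inhibit pyruvate oxidation.

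Of 30 genes of cholesterol and fatty acid synthesis 4 were called, all higher (13.3%), with a median of 0.25. HMGCS1 lies in the chromosome 5 stretch, and SQLE, FDFT1 and IDI1 of the sterol pathway lie outside it. SQLE, squalene epoxidase, stood at 95.5 and 98.0 CPM in WT-res and at 141, 140 and 162 CPM in ΔRS-res, with 149 CPM in the left-out library, and rose by 0.61 (standard error 0.0843, adjusted p = 0.0157). FDFT1, squalene synthase, rose by 0.42 (adjusted p = 0.0238) and IDI1, which isomerises isopentenyl diphosphate, by 0.48 (adjusted p = 0.037). With the replicate block 21 members were higher and 1 lower, and 3 were called higher in the cytoplasm, where the median was 0.33.

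Of 25 genes of mitochondrial dynamics and antioxidant defence, PRDX2, a cytosolic peroxiredoxin, rose by 0.41 (adjusted p = 0.0243) and NQO1, a quinone reductase, fell by 0.83 (adjusted p = 0.0336). SLC2A3 was the called member of 29 genes of glycolysis and the hypoxia response, a list with a median of 0.09. The ATF4 amino acid response (29 genes) and the unfolded protein response (22) had 0 called by edgeR, each with 4 at an unadjusted p under 0.05. DESeq2 called 1 and 2 of them, all lower. The medians of the ATF4 genes moved with single libraries, at 0.50 in ΔRS-res replicate 3 and 0.39 in the left-out library and between -0.17 and -0.11 in the other 4. Each is the median of log2(CPM + 0.5) less the gene's mean over the 5 libraries.

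Among mRNA export genes, where DDX19B carries no test, NXF1, the bulk export receptor, had an estimate of -0.20 (adjusted p = 0.432). Of 21 SR proteins and their kinases CLK1 was called, and of 31 nucleoporins NUP35 was called lower and NUP155 higher. NUP35 fell by 1.01 (adjusted p = 0.00923). CLK1, NUP35 and NUP155 lie in stretches. The same held for RPL37A among 76 cytosolic ribosomal proteins and for MRPL36 and MRPL44 among 78 mitochondrial ribosomal proteins. With the block the cytosolic ribosomal proteins had 13 lower and 1 higher, and the mitochondrial ones 6 and 6. Over all genes tested the block called 16.6%, 9.2% lower and 7.41% higher.

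Among non-homologous end joining genes NHEJ1 and XRCC5 were called lower of 10 tested, and both lie in the 2q stretch. XRCC5, the Ku80 subunit that binds broken DNA ends, stood at 794 and 823 CPM in WT-res and at 554, 550 and 445 CPM in ΔRS-res, a change of -0.65 (standard error 0.103, adjusted p = 0.0265), with 432 CPM in the left-out library. NHEJ1, the ligation factor XLF, fell by 0.63 (adjusted p = 0.0102). XRCC6, the Ku70 partner on another chromosome, had an estimate of 0.05 (adjusted p = 0.784), and PRKDC, the DNA-dependent kinase, 0.17 (adjusted p = 0.242). Of 38 HOX genes HOXD13, HOXD10, HOXD9 and HOXD11 were called lower, all in the same stretch. HOXD13 had the smallest p and fell by 0.69 (adjusted p = 0.00458).

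Of 46 matrix genes SPARC was called lower and COL6A1 and LUM higher. COL6A1, a chain of collagen VI, rose by 1.05 (adjusted p = 0.0458), with ΔRS-res replicate 3 at 57.1 CPM and the others at 39.3 and 38.2 CPM. LUM, lumican, stayed below 1 CPM in every library. Of 41 axon guidance genes EFNB1, ephrin-B1, rose by 0.59 (adjusted p = 0.0114) and PLXNA4, a semaphorin receptor, by 1.22 (adjusted p = 0.0173). Of 87 genes of WNT, BMP, FGF and NOTCH signalling 4 were called lower and 2 higher. TGFBR1, the type I TGF-β receptor, fell by 0.61 (adjusted p = 0.0176) and JAG2, a NOTCH ligand, rose by 0.62 (adjusted p = 0.0365). SOX9, a factor of epithelial progenitors, rose by 0.60 (adjusted p = 0.0177) and KRT8, a keratin of simple epithelia that HEK293 cells express, by 0.69 (adjusted p = 0.00345). CCN1, a matricellular protein and immediate early gene, fell by 0.49 (adjusted p = 0.0455).

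Clustered protocadherins, cell-cell recognition proteins expressed from arrays on chromosome 5, had 3 of 43 members called lower, PCDHB5, PCDHB8 and PCDHB2, and a median of -0.57. PCDHB5 went from 1.12 and 1.06 CPM to 0.216, 0.181 and 0.0931 CPM, a change of -2.75 (standard error 0.31, adjusted p = 0.00886), with 0.104 CPM in the left-out library. In the cytoplasm the median over 35 members tested was -0.52, and 0 were called. Of 483 zinc finger (ZNF) genes 18 were called lower and 6 higher (4.97%), 315 had a lower estimate, and the median was -0.13. Among the called ones 6 lie in the stretches. In the cytoplasm 18 of 482 were called lower and 4 higher, with a median of -0.05. With the replicate block 160 were lower and 33 higher. ZNF726 on chromosome 19 stood at 13.7 and 13.4 CPM in WT-res and at 6.88, 7.12 and 6.61 CPM in ΔRS-res, a change of -0.98 (standard error 0.0961, adjusted p = 0.00498), with 6.53 CPM in the left-out library. Reads of zinc finger and protocadherin genes may fit several members, which leaves single values uncertain.

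Solute carriers had 2 of 274 members called lower and 6 higher, potassium channels 0 of 67 lower and 2 higher, orphan G protein-coupled receptors 1 of 44 (GPR37, higher by 0.97, adjusted p = 0.00966), TMEM genes 3 of 201, metallothioneins and glutathione transferases 1 of 15 (GSTK1, lower by 0.48, adjusted p = 0.021), and keratins 1 of 12. Cell cycle genes (39), the MAGE family (13), forkhead factors (38) and aldehyde dehydrogenases (17) had 0 called by edgeR, with 8, 3, 10 and 7 at an unadjusted p under 0.05. DESeq2 called 3, 1, 2 and 3. With the block these 4 had 5, 0, 1 and 0 members lower and 5, 3, 5 and 7 higher. In all, 8 of the 40 lists and families had no called member, and in 10 of the others, complex II with SDHA among them, each called member lay in a stretch.

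Among transcripts that do not code for proteins, RN7SL3, a copy of the signal recognition particle RNA, stood at 350 and 319 CPM in WT-res and at 222, 182 and 177 CPM in ΔRS-res, a change of -0.79 (standard error 0.109, adjusted p = 0.0157), with 200 CPM in the left-out library. It belongs to a family of near-identical copies, so its value is uncertain. SNORA73A and SNORA73B, snoRNAs of the same host locus on chromosome 1, fell by 0.43 (adjusted p = 0.0429) and 0.44 (adjusted p = 0.037). SNHG1, a snoRNA host gene on chromosome 11, fell by 0.41 (adjusted p = 0.0357), and LINC00665 by 0.53 (adjusted p = 0.0108). At SNORA73A and SNHG1 the left-out library lay with WT-res, at 131 CPM against 141 and 126 CPM and at 118 CPM against 122 CPM in each. NIPBL-DT and NNT-AS1 of the chromosome 5 stretch rose by 0.44 (adjusted p = 0.0277) and 0.67 (adjusted p = 0.0202).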

How the data were processed

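The authors sequenced rRNA-depleted RNA as 100 bp paired reads and ran nf-core/rnaseq, in which Trim Galore trims reads, STAR maps them to GRCh38 and RSEM estimates transcripts of Ensembl 107. They deposited expected counts per transcript, unscaled. The study tested transcripts with DESeq2. The strand setting of the counting is not given in the sources used here.

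Here counts were summed per gene, rounded, kept above a mean of 2 and tested with edgeR 4.0.16 (TMM, quasi-likelihood, Benjamini-Hochberg) in R 4.3.3, with DESeq2 1.42.0 as an alternative. Genes were named by a rule: the 15 largest protein-coding changes in each direction whose higher line averaged 100 counts or more, with no overlap between groups, the 6 most abundant called genes per direction, up to 4 called members of each list, and 5 called non-coding genes per direction. Any other gene given with values was chosen after its values were seen. Members, lists and windows were chosen with earlier results of these data known. GENCODE 44 placed 99.83% of 61860 genes. In all 6 whole-cell libraries, the deviations of same-numbered replicates from the means of the lines correlated (Pearson's r 0.546, 0.547 and 0.684 over 15175 genes). The numbers were taken as pairs. WT-res replicate 2 with ΔRS-res replicate 1 gave 0.51, and WT-res replicate 1 with ΔRS-res replicate 2 gave 0.21. The other differently numbered pairs lay between -0.672 and -0.436. These values include the left-out library and do not settle the pairing of numbers 1 and 2. In the 5 libraries of the main test the 2 same-numbered correlations were 0.128 and 0.226. With 2 WT-res libraries the deviations mirror each other, so the crossed values are fixed at -0.128 and -0.226. ΔRS-res replicate 3, which has no partner there, gave 0.062 with WT-res replicate 1 and -0.062 with replicate 2. These values do not settle the pairing either. Depth limits genes near the floor of 3 counts. Intervals cover counting error only. Promoter sequences are RefSeq's (GRCh38.p14). A few results are not reported here.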

Additional observations from a re-analysis of the deposited data

Results flagged for a closer look

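A single gene was called for a difference between the 2 kinds of library in the effect of the line. Genes that were not called are not thereby shown to be alike in both. ENSG00000263244, a lncRNA on chromosome 16 (9104848 to 9113181), had 3259 and 3418 counts in the WT-res whole-cell libraries, 3298 in the left-out library and 1479, 1394 and 3164 in ΔRS-res, an estimate of -0.84 (adjusted p = 0.18). In the cytoplasm it had 1322, 1527 and 2360 counts in WT-res and 0 in each ΔRS-res library, where it was at least 444-fold lower against a floor of 3 counts per library. The difference between the 2 fitted changes was -12.92 (adjusted p = 0.00434 from edgeR's interaction test over 26657 genes), a fitted value that depends on the prior count and is not a bound. The cause was not tested.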

How the results depend on the processing

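The number of genes called in whole-cell RNA (552) depended on the libraries and on how their spread was estimated. It was 0 with all 6 libraries in edgeR (3360 at an unadjusted p under 0.05) and 1064 (795 lower, 269 higher) with all 6 in DESeq2, an alternative chosen after seeing the data. It was 2435 with DESeq2 on the 5 libraries, 2997 without a filter on low counts, 1052 in a joint fit with the cytoplasmic libraries and 2775 at the study's threshold of an unadjusted p with a log2 change above 0.5. With a replicate block for the paired numbers it was 4444 on the 5 libraries, a fit in which ΔRS-res replicate 3 does not inform the line effect. With the block and all 6 libraries it was 2136. Leaving out each library in turn gave between 64 and 1743, the lone WT-res library then being assumed to vary like the others. Without WT-res replicate 1 the count was 460 (372 lower, 88 higher), without WT-res replicate 2 64 (19 and 45), without ΔRS-res replicate 1 220, without ΔRS-res replicate 2 326 and without ΔRS-res replicate 3 1743 (758 and 985). Other normalization, filterByExpr and a fold threshold gave between 475 and 584. In the cytoplasm the count (396) was 5716 with the 4 libraries of the study, 933 with DESeq2 and between 117 and 366 without each replicate in turn: 157 without WT-res replicate 1, 117 without WT-res replicate 3, 125 without ΔRS-res replicate 1 and 139 without ΔRS-res replicate 2. The interaction count stayed at 1 in both alternatives run. None of the 103 named genes changed direction in any of the 14 alternatives run. The alternatives share most libraries with the test that named the genes, so their direction was largely set in advance. With all 6 libraries 102 of them no longer passed in edgeR, and 68 with the replicate block, and without WT-res replicate 2 73 no longer passed. DESeq2 on the 5 libraries kept 99 on their side of the threshold. The causes of these moves were not tested.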
